A study of Mus musculus with 6 samples.

Results

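The autophagy machinery genes are 40 genes chosen by name for their role in building the autophagosome, in attaching the ubiquitin-like ATG8 proteins to its membrane, in recruiting cargo and in regulating autophagy at the level of transcription. All 40 were found under these symbols among the 21851 genes of the tables, and all 40 had at least 1 FPKM (fragments scaled by transcript length and library depth) in every library. They were measured by RNA-seq in hematopoietic stem cells (HSCs), the bone marrow cells that renew themselves and form all blood lineages. The 3 control libraries came from wild-type mice whose agent is labelled control, and the 3 irradiated libraries from wild-type mice given ionizing radiation, with HSCs sorted from the marrow of both. The sort, per the series' design text, kept lineage-negative cells with CD150, c-Kit and Sca-1 at the surface and without CD48 or Flt3. The sources used here do not give the radiation dose, the interval before sorting, the age of the mice or the animals behind each library. Nothing states that libraries of a group came from separate animals, so each p-value reflects only how these samples differ among themselves, and that spread may be technical.

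Macroautophagy begins when the ULK1 kinase complex activates a lipid kinase complex built around VPS34 (the product of Pik3c3) and Beclin 1, which marks a growing membrane with phosphatidylinositol 3-phosphate (PI3P). WIPI proteins read that lipid, ATG2 and ATG9A supply lipids, and ubiquitin-like conjugation reactions attach the LC3 and GABARAP proteins, the mammalian ATG8 family, to the membrane, where they hold receptors such as p62 (Sqstm1). The transcription factors TFEB and TFE3 switch on autophagy and lysosome genes, and autophagy is known to be needed for the maintenance of HSCs.

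The coding ends of the 5 ATG8 genes are shown because the family holds the most abundant member and changed unevenly between the groups. Each line gives the last 60 bases of the coding sequence, stop codon included, 5′ to 3′ on the gene's strand, from GENCODE M21 transcripts (GRCm38), with the codon of the glycine after which ATG4 proteases cut in capitals.
Map1lc3a: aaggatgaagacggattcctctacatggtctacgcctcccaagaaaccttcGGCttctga
Map1lc3b: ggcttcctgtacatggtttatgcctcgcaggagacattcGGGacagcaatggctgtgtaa
Gabarap: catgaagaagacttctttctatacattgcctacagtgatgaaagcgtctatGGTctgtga
Gabarapl1: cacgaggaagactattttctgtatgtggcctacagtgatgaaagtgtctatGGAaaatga
Gabarapl2: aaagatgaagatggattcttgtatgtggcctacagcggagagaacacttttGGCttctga

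In Map1lc3b 5 codons followed the glycine codon, and in the other 4 genes 1 codon did. The coding sequences of Map1lc3a and Map1lc3b were 77.5% identical, those of Gabarap and Gabarapl1 74.9%, and the least alike pair, Map1lc3a and Gabarapl1, 54.4%. The longest run of identical bases between any pair of these 5 transcripts was 17. Outside the family, 3 processed pseudogenes matched Gabarapl2 over about 350 bases at 96.6% to 99.4% identity, so the value of Gabarapl2 is uncertain. Atg4a is uncertain as well, since the annotated copy Atg4a-ps matched 96.0% of its transcript at 99.3% identity. Atg9a is uncertain too, since the transcript Gm29253, which overlaps it on the same strand, matched 25.4% of its transcript at 99.9% identity. Annotated genes on the opposite strand overlap Atg2b, Atg4b, Atg4d, Atg9a, Becn1 and Map1lc3b, for which the overlapping gene also had a value, and Atg10, Atg14, Gabarapl1, Optn, Pik3r4, Rb1cc1, Sqstm1, Tax1bp1 and Uvrag, for which it was not analysed here. The strand setting of the counting is not stated, so reads of such pairs may not have been separated. At Map1lc3b the opposite-strand gene Zcchc14 was at 0.0302 FPKM in controls, and the protein-coding gene Gm20388, which overlaps on the same strand and which no strand setting would separate, was not analysed here.

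After irradiation 17 of the 40 genes were lower, 6 were higher and 17 did not pass the test, which was limma with an adjusted p under 0.05 by the Benjamini-Hochberg method. Of 10281 genes tested 54.7% were called, 28.9% as lower and 25.8% as higher. Against these, 57.5% of the autophagy genes were called, 42.5% as lower and 15% as higher, so the called share lay near the background and the calls leaned downward. The number that rose was 3 without control replicate 1 and 3 without irradiated replicate 3. The median log2 fold change of the 40 genes was -0.05, and that of all genes tested was -0.01. Every log2 fold change here compares log2(FPKM + 1) values, and for genes at low levels it is smaller than the change in FPKM itself. Most changes were small: 11 autophagy genes were called with a log2 fold change of at least 0.2 in size (9 fell and 2 rose), a limit passed by 32.9% of all genes, and none reached 1. The same 23 genes lay under an unadjusted p of 0.05, so each count of 0 given below for a role is also 0 without the adjustment. In these bulk samples, fewer cells of a type and less RNA per cell cannot be told apart.

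**Figure D1:**
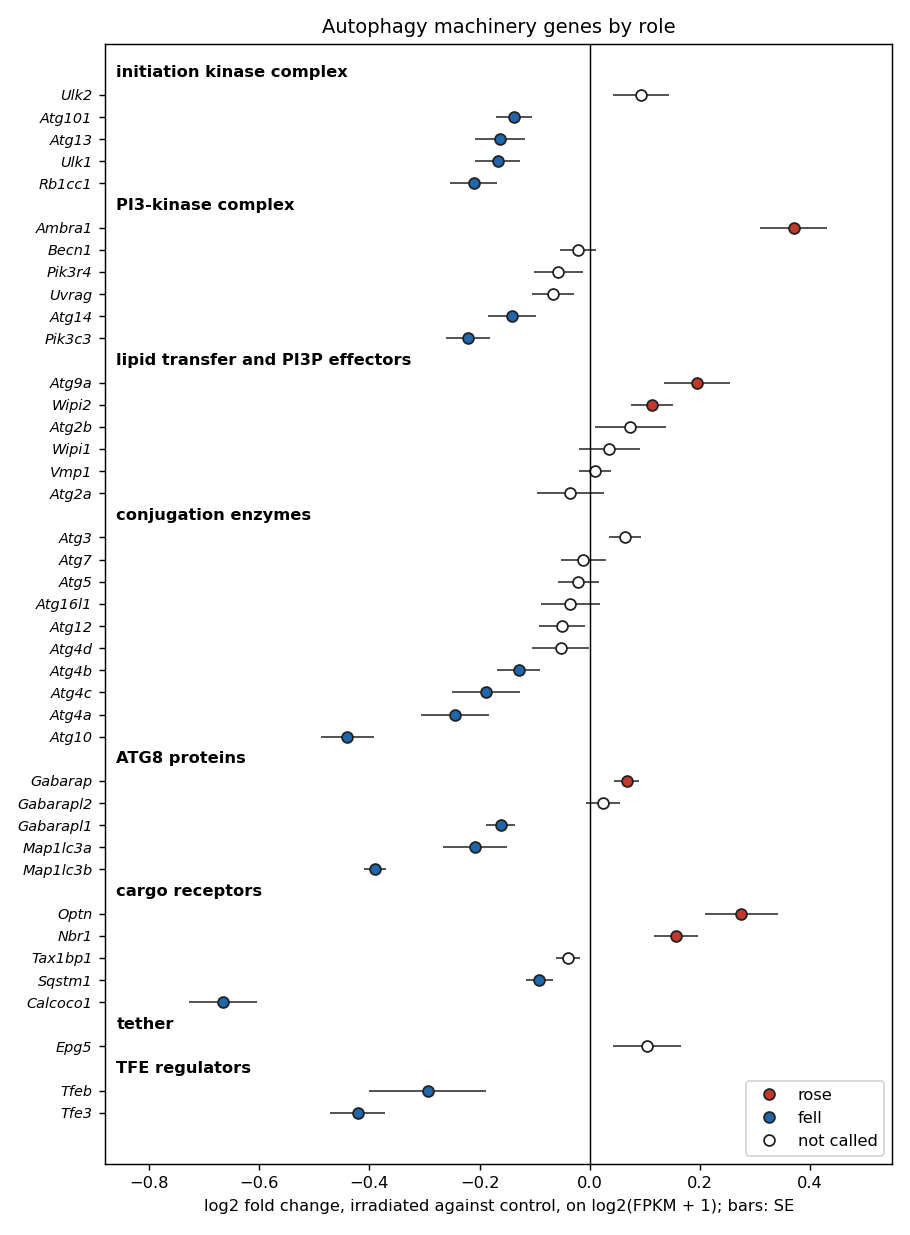
Log2 fold change (irradiated against control, on log2(FPKM + 1)) of the 40 autophagy genes, ordered by role, with bars for the standard error; blue points fell, red points rose and open points were not called. The points run from -0.67 for Calcoco1 to 0.37 for Ambra1, and the initiation kinase complex has 4 of its 5 genes on the lower side.

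The levels of the 40 genes spanned a wide range. Map1lc3b, which encodes LC3B, had the highest control mean at 321 ± 2.64 FPKM (SD, n = 3), above 97.7% of tested genes by rank. Sqstm1 followed at 142 ± 2.74 FPKM, then Gabarap at 133 ± 2.15 and Tax1bp1 at 131 ± 1.28 FPKM, and the libraries of these last 2 overlapped. The lowest was Epg5, a tether for fusion with the lysosome, at 1.23 ± 0.0279 FPKM. The median autophagy gene lay at the 49.0 percentile of tested genes. Of 7 members with a control mean under 5 FPKM 4 were called, against 48.1% of all genes at that level; of 18 between 5 and 20 FPKM 11 were called, against 53.4%; and of 15 at 20 FPKM or more 8 were called, against 60.3%.

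**Figure D2:**
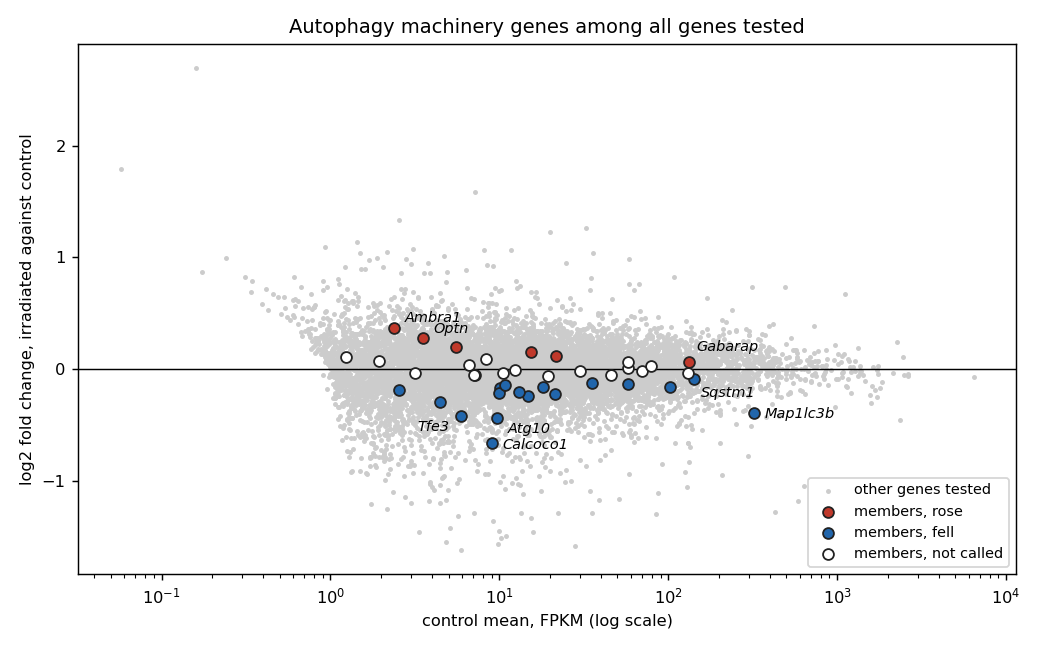
Log2 fold change against the control mean in FPKM (log axis) for all genes tested (grey) and the 40 autophagy genes (blue fell, red rose, open not called). Map1lc3b, at -0.39, is the member furthest to the right, and the members lie inside the cloud of other genes at their levels.

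Among the ATG8 genes the LC3 side was lower. Map1lc3b (chromosome 8, 121590361 to 121598760, plus strand, GRCm38) read 318, 321 and 323 FPKM in control replicates 1 to 3 and 248, 243 and 242 FPKM in irradiated replicates 1 to 3. The irradiated libraries lay well under the controls with no overlap, a fall of 23.8% (-0.39 on the log2 scale, SE 0.019, adjusted p = 2.46e-07 by limma). Map1lc3a, which encodes LC3A, was far less abundant, at 12.4, 13.8 and 13.1 FPKM in controls and 12.2, 10.7 and 10.7 FPKM in irradiated libraries. The groups of Map1lc3a came close to touching, and the gene fell by 0.21 on the log2 scale (adjusted p = 0.012 by limma). Without control replicate 2 that call was lost (limma adjusted p = 0.0512).

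The GABARAP genes moved in different directions. Gabarapl1, a close paralog of Gabarap, read 101, 104 and 103 FPKM in controls and 89.2, 93.0 and 91.8 FPKM after irradiation. Its groups did not overlap and it fell by 0.16 (SE 0.026, limma adjusted p = 0.000483). Gabarap, named for its binding to the GABA-A receptor, read 132, 132 and 136 FPKM in controls and 141, 139 and 139 FPKM in irradiated libraries. This was a rise of 4.82%, or 0.07 on the log2 scale (limma adjusted p = 0.027), and the call was lost in 7 of 15 alternatives, among them 4 of the 6 that leave out a library (without control replicate 1 or 2 or irradiated replicate 1 or 3). The highest adjusted p of Gabarap was 0.0946, from limma without a variance trend. Gabarapl2, known as GATE-16, overlapped between the groups at 81.2, 80.5 and 76.7 FPKM and 83.0, 79.1 and 80.5 FPKM (log2 fold change 0.02, not called).

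Summed over the 5 genes, ATG8 RNA was 648 ± 4.17 FPKM in controls and 567 ± 5.03 FPKM in irradiated HSCs, with groups that did not overlap. The 2 LC3 genes together went from 334 ± 3.15 to 256 ± 3.88 FPKM. The 3 GABARAP genes summed to 315 ± 1.20 FPKM in controls and 312 ± 1.22 FPKM in irradiated libraries, a ratio of 0.990. Map1lc3b thus made up 49.4% ± 0.151 of the family in controls and 43.1% ± 0.151 in irradiated libraries, while the share of Gabarap went from 20.5% ± 0.301 to 24.6% ± 0.0452. Both shares separated the groups, which gives an exact 2-sided permutation p of 0.1, the smallest that 3 libraries against 3 allow (0.262 adjusted over the 21 shares computed in 6 families). A share within a family does not depend on how a library is scaled. The value of Gabarapl2, uncertain for its pseudogenes, enters the ATG8 and GABARAP sums and the shares of this family.

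**Figure D3:**
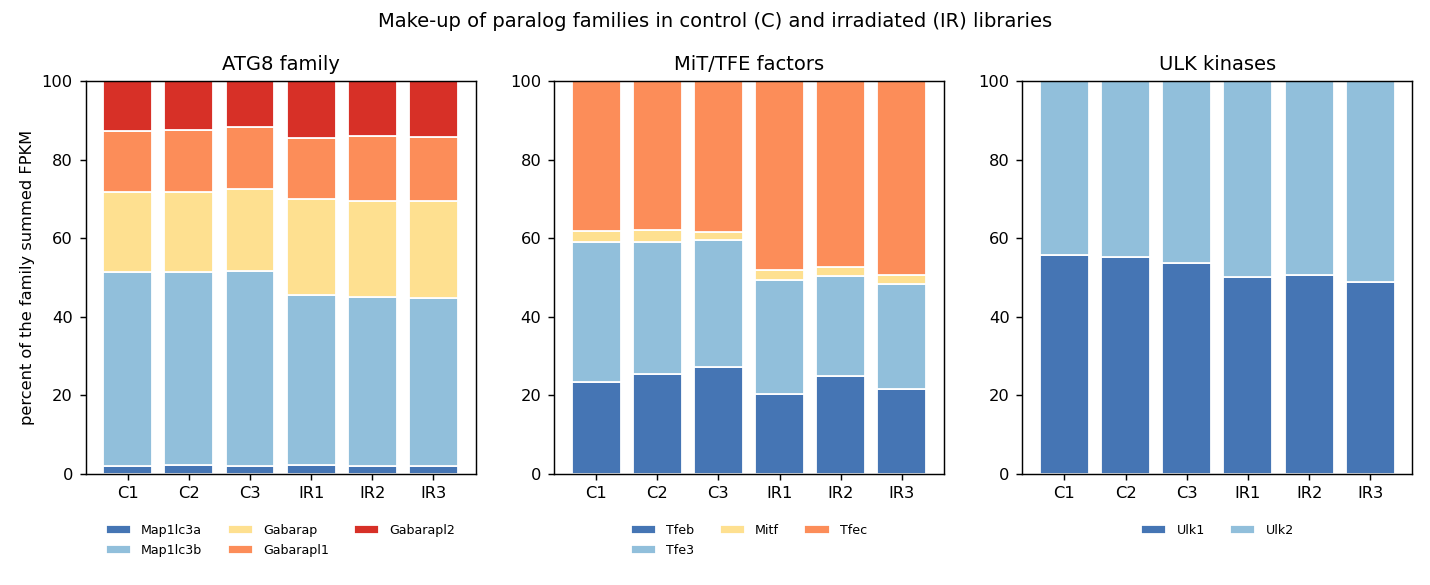
Share of each paralog in the summed FPKM of its family (percent) in control libraries 1 to 3 (C) and irradiated libraries 1 to 3 (IR), for the ATG8, MiT/TFE and ULK families. In the irradiated libraries the Map1lc3b segment is smaller (43.1% against 49.4%), the Tfec segment is larger (48.3% against 38.3%), and Ulk1 and Ulk2 come close to equal parts.

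Cargo receptors, which link ubiquitin-tagged or organellar cargo to ATG8 proteins, changed in both directions: 2 of 5 rose and 2 fell. This count over few genes stands beside 25.8% higher and 28.9% lower among all genes tested. Calcoco1 (chromosome 15, 102706777 to 102722178, minus strand, GRCm38), a receptor for turnover of the endoplasmic reticulum and Golgi, read 9.13, 9.53 and 8.37 FPKM in controls and 5.03, 5.75 and 5.15 FPKM after irradiation. Its libraries were clearly apart, and its fall of 41.1% was the largest of the 40 genes (-0.67 on the log2 scale, SE 0.061, adjusted p = 1.35e-05 by limma). Sqstm1, the receptor p62, read 140.2, 141 and 145 FPKM in controls and 135, 131 and 134 FPKM in irradiated libraries, a fall of 6.20% without overlap (limma adjusted p = 0.00891).

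Nbr1, a relative of p62, read 15.5, 15.8 and 14.9 FPKM in controls and 16.7, 17.7 and 17.3 FPKM in irradiated libraries, a rise of 12.3% (limma adjusted p = 0.00697). Optn, which encodes optineurin, read 3.34, 3.69 and 3.52 FPKM in controls and 4.82, 4.01 and 4.58 FPKM after irradiation, a rise of 27.3% (limma adjusted p = 0.00541). For both genes the lowest irradiated library lay above the highest control. Tax1bp1, an abundant ubiquitin-binding receptor, was not called at 129.7, 132 and 132 FPKM and 128, 127 and 128 FPKM, although its groups did not overlap. Groups did not overlap in 26 of the 40 autophagy genes, 8 with the irradiated libraries above and 18 with them below, against 61.7%, 29.1% and 32.5% of all genes tested.

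**Figure D4:**
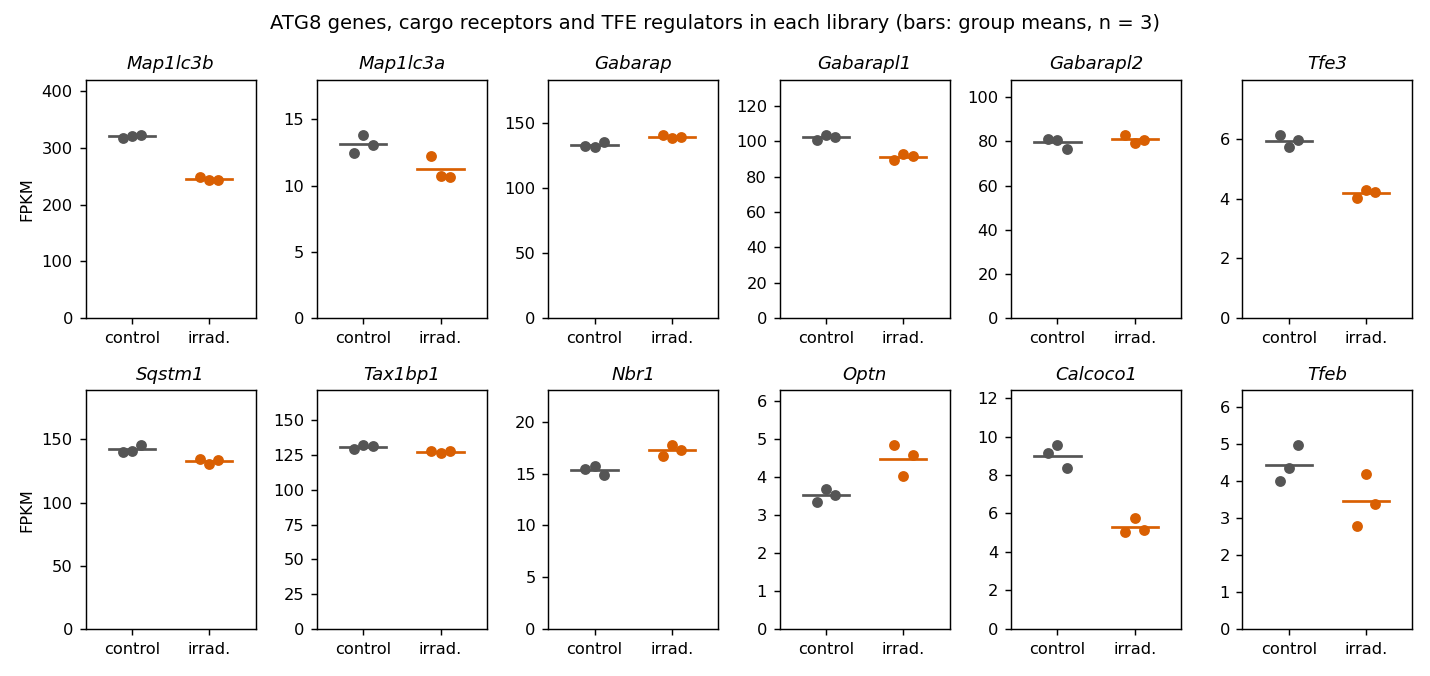
FPKM (linear axes from 0) of the ATG8 genes, cargo receptors and TFE regulators in each control and irradiated library, with horizontal bars for the means of 3 libraries. Map1lc3b, Calcoco1 and Tfe3 show a gap between the groups, and the irradiated Tfeb libraries spread from 2.79 to 4.19 FPKM and overlap the controls.

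In the initiation kinase complex, which senses starvation and mTORC1 activity, 4 of 5 genes fell and 0 rose, a count over few genes that stands beside 28.9% lower and 25.8% higher among all genes tested. Ulk1, the kinase itself, read 9.86, 10.1 and 10.3 FPKM in controls and 8.88, 8.99 and 8.71 FPKM in irradiated libraries, a fall of 0.17 on the log2 scale (limma adjusted p = 0.00619). Rb1cc1, the scaffold FIP200, read 9.80, 10.1 and 9.80 FPKM and then 8.34, 8.25 and 8.69 FPKM, a fall of 14.9% (limma adjusted p = 0.00203). Neither gene overlapped between the groups. The adaptors Atg13 and Atg101 fell from 18.2 ± 0.323 to 16.1 ± 0.961 FPKM and from 57.5 ± 1.90 to 52.2 ± 1.34 FPKM.

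Ulk2, the second kinase of this complex, was not called. It read 7.85, 8.18 and 8.88 FPKM in controls and 8.84, 8.78 and 9.14 FPKM in irradiated libraries, with overlapping groups (log2 fold change 0.09, SE 0.051, limma adjusted p = 0.142). The share of Ulk1 in the sum of both kinases was 54.8% ± 1.07 in controls and 49.8% ± 0.932 in irradiated HSCs. These shares did not overlap (exact permutation p = 0.1, the smallest possible here).

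The PI3-kinase complex was mixed. Pik3c3, the catalytic subunit VPS34, read 21.5, 20.9 and 21.9 FPKM in controls and 18.1, 17.5 and 19.0 FPKM in irradiated libraries, a fall of 14.8% with separate groups (limma adjusted p = 0.000987). Atg14, the subunit that directs the complex to autophagy, fell from 10.7 ± 0.374 to 9.64 ± 0.225 FPKM, a call lost without control replicate 1 or irradiated replicate 1 or 3 (limma adjusted p from 0.0508 to 0.0694). Becn1, which encodes Beclin 1, read 71.6, 70.2 and 67.4 FPKM and 67.2, 67.9 and 71.0 FPKM and was not called, its groups overlapping almost wholly. The regulatory subunit Pik3r4 (VPS15) and Uvrag, the subunit that takes the place of ATG14 on endosomes, were not called at log2 fold changes of -0.06 and -0.07. Ambra1 (chromosome 2, 91730134 to 91918849, plus strand, GRCm38), which stabilises ULK1 and binds Beclin 1, read 2.47, 2.35 and 2.31 FPKM in controls and 3.31, 3.14 and 3.64 FPKM after irradiation. It showed the largest rise of the 40 genes, 41.8% (0.37 on the log2 scale, SE 0.061, adjusted p = 0.000607 by limma), and its libraries did not overlap. About 173 to 273 fragments per library lay behind Ambra1, from the estimated depth and the longest annotated transcript.

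Among lipid-transfer proteins and PI3P effectors 2 of 6 rose and 0 fell. Their called share was 33.3%, under the 54.7% of all genes tested. Atg9a, the lipid scramblase of the seed vesicles, whose value is uncertain for its overlap with Gm29253, rose from 5.56 ± 0.380 to 6.50 ± 0.372 FPKM, and Wipi2, the PI3P reader that recruits ATG16L1, from 21.6 ± 0.435 to 23.5 ± 0.932 FPKM. Both were close to the threshold (limma adjusted p = 0.0185 and 0.0284). Atg9a lost its call without control replicate 1 or irradiated replicate 2 or 3. Wipi2 lost its call without control replicate 1 or 2 or irradiated replicate 1 or 3. Atg2a, Atg2b, Wipi1 and the scramblase gene Vmp1 were not called, with log2 fold changes of -0.04, 0.07, 0.04 and 0.01.

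In conjugation 4 of 10 genes fell and 0 rose, 3 of them among the 4 ATG4 proteases, which prime and recycle ATG8 proteins. The called share of these 10 genes was 40%, under the 54.7% of all genes tested. Atg4a, whose value is uncertain for its copy Atg4a-ps, read 15.5, 14.9 and 14.1 FPKM in controls. After irradiation Atg4a read 13.6, 11.3 and 12.3 FPKM (limma adjusted p = 0.0068). Atg4b, the most abundant, fell from 35.3 ± 1.49 to 32.2 ± 1.11 FPKM and Atg4c from 2.53 ± 0.107 to 2.10 ± 0.152 FPKM, while Atg4d was not called at -0.05. Atg4b lost its call without control replicate 1 or irradiated replicate 2 or 3, and Atg4c without control replicate 2 or 3 or irradiated replicate 2 or 3 and under quantile normalization (limma adjusted p = 0.0850). The summed RNA of the 4 proteases, the uncertain Atg4a among them, was 59.7 ± 1.87 FPKM in controls and 53.4 ± 2.26 FPKM in irradiated HSCs. The groups of this sum did not overlap, while the share of Atg4b in it did, at 59.1% ± 0.675 and 60.2% ± 0.794.

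Of the other 6 conjugation genes 1 fell and 0 rose, beside 28.9% lower and 25.8% higher among all genes tested. Atg10, the E2-like enzyme that joins ATG12 to ATG5 (chromosome 13, 90935356 to 91223968, minus strand, GRCm38), read 9.57, 9.33 and 10.2 FPKM in controls and 7.16, 6.77 and 6.70 FPKM in irradiated libraries. This fall of 29.0% left a gap between the groups (-0.44 on the log2 scale, SE 0.049, adjusted p = 4.48e-05 by limma). Its substrates and partners were not called: Atg12 was at 45.9 ± 2.69 and 44.3 ± 1.32 FPKM, Atg5 at 29.9 ± 1.40 and 29.4 ± 0.177 FPKM and Atg16l1 at 10.5 ± 0.494 and 10.3 ± 0.626 FPKM. The E1-like Atg7 and Atg3, the E2-like enzyme for the ATG8 proteins, were not called either, at log2 fold changes of -0.01 (SE 0.041) and 0.06 (SE 0.029). The tether gene Epg5, which acts after the autophagosome has closed, read 1.25, 1.23 and 1.20 FPKM in controls and 1.43, 1.33 and 1.43 FPKM in irradiated libraries. These groups did not overlap, but Epg5 was not called (limma adjusted p = 0.174).

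Both TFE regulators were lower. Tfe3 (X chromosome, 7762560 to 7775202, plus strand, GRCm38) read 6.14, 5.72 and 5.95 FPKM in controls and 4.03, 4.30 and 4.21 FPKM in irradiated libraries, a fall of 29.6% with no overlap (-0.42 on the log2 scale, SE 0.051, adjusted p = 7.56e-05 by limma). Tfeb read 3.99, 4.36 and 4.96 FPKM and then 2.79, 4.19 and 3.38 FPKM. Irradiated replicate 2 of Tfeb lay inside the control range, and the call at -0.29 (SE 0.106, limma adjusted p = 0.0376) was lost in 7 of 14 alternatives, 4 of them fits without control replicate 2 or 3 or irradiated replicate 1 or 3, with limma adjusted p up to 0.132 without irradiated replicate 1. Tfeb was the only called gene of the 40 whose groups overlapped. Tfec, the relative best known from macrophages, was not called at 6.57, 6.51 and 7.06 FPKM and 6.65, 7.97 and 7.77 FPKM, and its share of the family went from 38.3% ± 0.271 to 48.3% ± 1.10. That share separated the groups (exact permutation p = 0.1, the smallest possible).

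Promoter letters were compared because TFEB and TFE3 bind the palindrome TCACGTGA, the core of the CLEAR element, which contains the E-box core CACGTG. Windows of 250 bases upstream of RefSeq start sites (GRCm38.p6) were found for 33 of the 40 genes and searched on both strands. TCACGTGA stood in 1 of these 33 genes and in 0.907% of 27025 genes with a window, and CACGTG in 3 of 33 and in 6.86%. The forkhead letters GTAAACA stood in 0 of 33 and in 3.54%. A match is a description and not a binding site. The windows with CACGTG belonged to Atg3, Atg5 and Atg7, and the 14 genes with a window that fell and the 6 that rose held neither it nor TCACGTGA. The match of Atg7 lay in the window of a second start inside the gene. The stretches of 60 bases around the letters in the proximal windows of Atg3 (chr16:45158709-45158768, plus strand) and Atg5 (chr10:44268279-44268338, plus strand) are shown because these genes carry the letters and were not called; capitals mark CACGTG and TCACGTGA.
Atg3: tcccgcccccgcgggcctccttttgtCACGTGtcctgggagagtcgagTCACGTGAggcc
Atg5: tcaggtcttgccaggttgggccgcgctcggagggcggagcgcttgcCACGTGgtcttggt

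The wider pathway was read from 6 further lists. Of 28 lysosomal genes described as TFEB targets 10 fell, 2 rose and 16 passed in neither direction (median -0.03 on the log2 scale). Scpep1, a serine carboxypeptidase, fell from 45.7 ± 0.766 to 27.3 ± 0.843 FPKM, Psap, the precursor of the saposins, from 61.4 ± 2.39 to 43.8 ± 0.391 FPKM and Ctsa, the protective cathepsin A, from 78.4 ± 0.492 to 62.5 ± 1.56 FPKM. The called share of this list was 42.9%, under the 54.7% of all genes. Of 7 tested transcriptional regulators 2 fell and 1 rose, a called share that was also 42.9%. Foxo1 fell from 3.37 ± 0.437 to 2.37 ± 0.115 FPKM. Foxo3, known as a driver of autophagy genes in HSCs, fell from 2.49 ± 0.284 to 2.02 ± 0.118 FPKM. Zkscan3, described as a repressor of autophagy genes, rose from 18.7 ± 0.278 to 25.9 ± 0.822 FPKM, 38.3% higher and without overlap.

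In the fusion machinery 6 of 15 genes fell and 2 rose (median -0.09). This count and those of the 3 lists that follow stand beside 28.9% lower and 25.8% higher among all genes tested. Tecpr1, a PI3P-binding tether of autolysosomes, fell from 4.88 ± 0.181 to 2.74 ± 0.196 FPKM and Vps41, a subunit of the HOPS tether, from 13.4 ± 0.117 to 11.3 ± 0.271 FPKM, whereas Snap29, a SNARE of the fusion step, rose from 2.85 ± 0.239 to 3.94 ± 0.198 FPKM. Among 15 other cargo and organelle receptors 4 fell and 3 rose (median -0.00). The members with the smallest p all fell: the reticulophagy receptor Retreg1 (listed as Fam134b) from 22.1 ± 0.448 to 15.8 ± 0.107 FPKM, the mitophagy receptor Bnip3 from 50.7 ± 0.483 to 41.1 ± 1.52 FPKM and the ubiquitin-binding adaptor Tollip from 35.8 ± 1.28 to 29.8 ± 1.08 FPKM.

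Accessory factors were even, with 4 of 15 up and 4 down. Wdr45, the fourth WIPI protein, fell by 25.5% and Rubcnl (listed as 5031414D18Rik), which binds UVRAG, by 29.0%, while Tmem41b, a scramblase that works with VMP1, rose by 33.4%. In the AMPK and mTORC1 list 6 of 23 rose and 6 fell (median 0.03). Rraga, a Rag GTPase that brings mTORC1 to the lysosome, rose from 8.64 ± 0.219 to 12.7 ± 0.706 FPKM, while Mlst8, a subunit of mTORC1, fell from 7.37 ± 0.340 to 5.54 ± 0.0800 FPKM and Prkab1, the beta-1 subunit of AMPK, from 40.9 ± 0.186 to 32.7 ± 0.244 FPKM. The called shares of the fusion, receptor, accessory and AMPK and mTORC1 lists lay between 46.7% and 53.3%, against 54.7% of all genes tested.

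**Figure D5:**
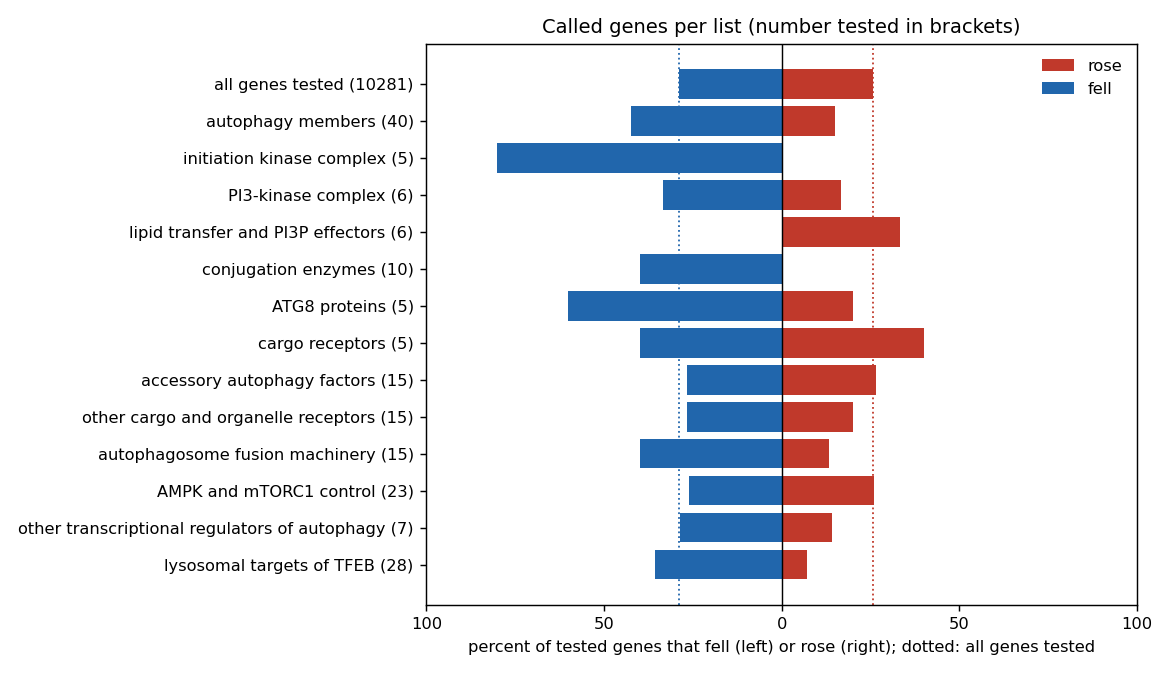
Percent of tested genes that fell (left, blue) or rose (right, red) among all 10281 genes tested, the 40 autophagy genes, their roles with at least 5 genes and 6 lists of the wider pathway; dotted lines mark all genes tested (28.9% and 25.8%). The initiation kinase complex extends furthest to the lower side with 4 of 5 genes.

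Marker genes moved between the groups at the same time, and their part in the autophagy results was not tested. Each marker list held 10 genes, and the counts are over those tested. They stand beside 28.9% lower and 25.8% higher among all genes tested. HSC markers were present, with 9 of 10 tested (3 rose, 4 fell), and their summed level was 425 to 436 FPKM in controls and 358 to 373 FPKM in irradiated libraries. Of the lists for other cells, monocyte and macrophage markers fell in 6 of 7 tested cases (summed 704 to 708 and 617 to 630 FPKM), lymphoid markers fell in 3 of 5 and rose in 2 (971 to 988 and 836 to 838 FPKM), and endothelial and stromal markers fell in 5 of 5 (71.1 to 74.3 and 55.3 to 58.0 FPKM). Erythroid markers rose in 5 of 8 (103 to 110.2 and 135 to 149 FPKM), megakaryocyte markers in 5 of 8 (157 to 159.7 and 191 to 204 FPKM), mast cell and basophil markers in 6 of 8 (323 to 331 and 396 to 407 FPKM), and neutrophil markers in 5 of 10 with 5 lower (5310.2 to 5343 and 6089 to 6251 FPKM). Gp6 of platelets and Cd3g of T cells were listed at 0 in all 6 libraries. Estimated depth was 14400000 to 16300000 fragments per library and did not separate the groups.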

How the data were processed

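Expression was read from 6 tables, 1 per library, with 1 value per gene symbol. The deposited values were taken as FPKM made by the authors; the column carries no unit, so this rests on the values and on StringTie, named with fastp, HISAT2 and the build GRCm38 (mm10) in the submitters' processing notes. The sources used here give no versions, annotation or strand settings, so reads of a gene and an overlapping antisense gene may not have been separated. Of 21878 entries, 27 held a calendar date in place of a symbol and were left out. Library sums were 486033 to 490697. Depth was estimated from low values of single-transcript genes, of which 25.1% to 26.7% lay within 0.01 of a whole multiple of a step, too few to recover reads. The 10281 genes that reached 1 FPKM in 3 or more libraries entered limma 3.58.1 in R 4.3.3 as log2(FPKM + 1) (trended empirical Bayes, 2-sided), all 6 libraries in 1 fit without a block, Benjamini-Hochberg adjustment over all genes and a threshold of 0.05. The script was tested on simulated data. Shares within families were compared by exact permutation. Coding sequences of GENCODE M21 were aligned with Biopython 1.88 in place of the protein comparison first planned, and promoter windows came from RefSeq.

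Every library is given for ATG8 genes, cargo receptors, Ulk1, Ulk2, Becn1, Tfeb, Tfe3, and other called members with a log2 fold change of at least 0.2 in size; of each wider list the 3 tested genes with the smallest p are named. Tfec is named for its family. The members and lists were chosen with earlier results of these data known. Alternatives changed the pseudocount, filter, scaling, variance model, replicate block and libraries.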

Additional observations from a re-analysis of the deposited data

How the results depend on the processing

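Counts of autophagy genes held within 1.5 times under each change of pseudocount, filter, scaling and variance model. Quantile normalization gave a median log2 fold change of -0.0328 in place of -0.0515, with 8 genes up and 15 down. Leaving out each library in turn gave 3 to 7 genes up, 13 to 15 down and a median of -0.0677 to -0.0452; the count that rose was 3 without control replicate 1 and 3 without irradiated replicate 3. No called gene changed direction. Calls held in all alternatives run for 12 of the 17 genes that fell and 3 of the 6 that rose (Ambra1, Nbr1 and Optn); among genes not called, Ulk2, Atg3 and Epg5 passed the threshold in 1 or 2. With the replicate number as a block 5 rose and 17 fell, Gabarap being lost (limma adjusted p = 0.0512). Deviations of same-numbered libraries correlated at 0.0085, -0.031 and -0.049, so no shared effect of the replicate number was seen. Such values cannot show whether same-numbered libraries were prepared together, which no label states. Atg4c, with 90 to 132 fragments per library, and Tfeb, with 103 to 167, rest on the fewest fragments.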
